A study of Mus musculus with 32 samples.

Results

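Gingiva of mice whose bite was overloaded, with no ligature, was compared with gingiva of untreated mice over all genes. The comparison used 8 of the 32 libraries of the series, 4 of the trauma group (Tra) and 4 of the control group (Co), chosen by their tissue and treatment labels alone. All mice were wild-type C57BL/6J males, an inbred laboratory strain, 9 weeks old. In Tra mice composite resin, a tooth filling material, was built up on the chewing surface of the second molar of the left upper jaw, so that this tooth met its opponent early, and Co mice received no treatment. Set beside them are gingiva with resin and a silk ligature around the same tooth (LiTra), gingiva with the ligature alone (Li), a standard model of periodontitis, and bone from Tra and Co mice, with 4 libraries in each group. The labels give no time between treatment and sampling, and the columns of the Tra libraries carry the letters CR, read here as composite resin. Nothing in the labels states that the libraries of a group come from separate animals, so each p-value speaks of the spread between libraries.

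Gingiva is a stratified, keratinizing epithelium on collagen-rich connective tissue that seals the neck of the tooth. Chewing load passes mainly through the root into the periodontal ligament and the bone, where cells under load are known to release prostaglandins, cytokines and RANKL, the signal for osteoclast formation. Stressed cells also raise heat shock chaperones, proteins that fold and refold others, whose genes are switched on by the transcription factor HSF1 through GAA and TTC blocks in their promoters.

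Library totals were 43476345 to 50740393 counts in Tra and 39416738 to 42787336 in Co, and levels are given as CPM, a count scaled to the size of its library after TMM. Epithelial keratins marked the tissue in all 8 libraries: Krt14, the keratin of basal cells, was at 13872 to 18116.6 CPM in Tra and 8934.6 to 12687.2 in Co, against 5.41 to 1568.7 in the bone libraries. The bone marker Bglap, which encodes osteocalcin, was at 79.3 to 126.3 CPM in Tra and 90.9 to 228.8 in Co, against 380.1 to 2128.1 in bone. Other tissues were present unevenly. In Tra 2 the transcripts of 19 nasal gland and olfactory genes summed to 32049.3 CPM, with 853.2 in Tra 1 and 8.33 to 114.7 in the other 6 libraries. Skeletal muscle genes summed to 12351, 3395.7, 170.1 and 448.7 CPM in Tra libraries 1 to 4, against 4588.6, 234, 4855 and 4866.9 in Co libraries 1 to 4. Genes of minor salivary glands summed to 193.9 to 4482.2 CPM in Tra and 99.8 to 6129 in Co. The part of these tissues in the results below was not tested beyond fits without Tra 2, and in whole tissue fewer cells of a type and less RNA per cell cannot be told apart.

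**Figure D1:**
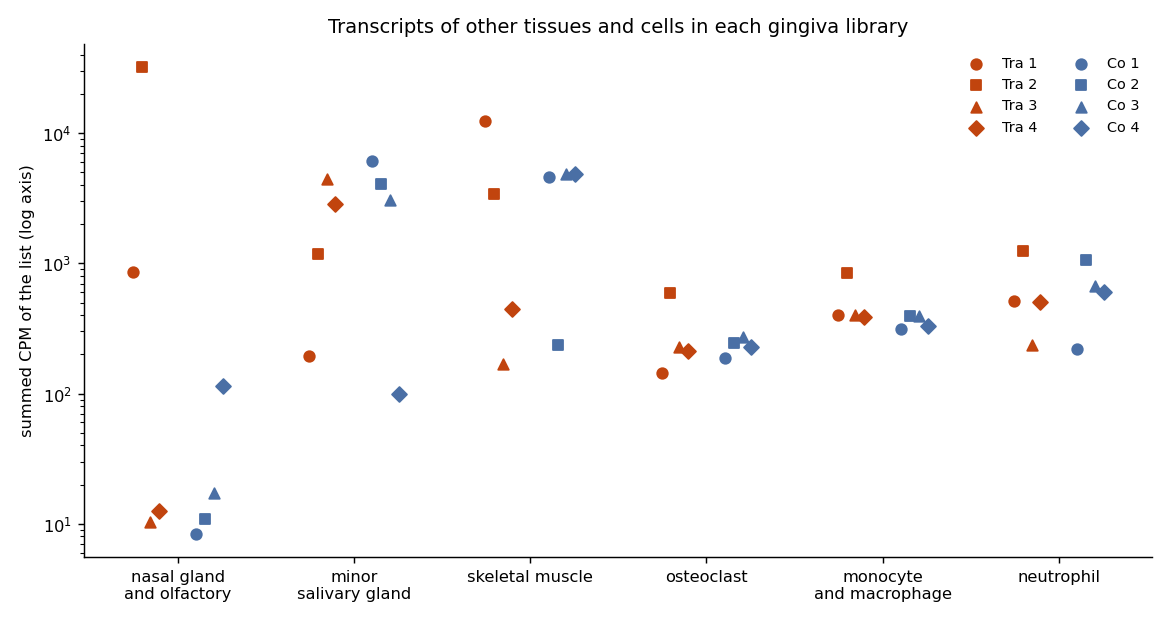
Summed CPM (log axis) of 6 marker lists in each gingiva library, with Tra on the left and Co on the right of each pair and 1 point a library. Tra 2 stood at 32049.3 CPM for nasal gland genes, 596.1 for osteoclast genes and 842.1 for macrophage genes, the highest of the 8 libraries in each.

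No gene passed an adjusted p under 0.05 between Tra and Co gingiva. The quasi-likelihood test of edgeR with Benjamini-Hochberg adjustment called 0 of 20143 genes (0%), and the lowest adjusted p was 0.0583. At an unadjusted p under 0.05, 821 genes were higher in Tra (4.08%) and 502 were lower (2.49%), with a median log2 change of -0.01 over all genes tested. The 4 Tra libraries lay above all 4 Co libraries in 647 genes (3.21%) and below them in 377 (1.87%). Other tools gave other counts on the same data, with 4 genes in limma-voom (Hspa8, Gm15459 and Prnp higher, Nr1d1 lower) and 88 in the Wald test of DESeq2, 65 higher and 23 lower. The genes named below are therefore given by their values, as genes that did not pass, and counts of higher and lower list members are at an unadjusted p under 0.05. Many were picked for a low p between Tra and Co, and the tests of the ligature and tissue differences below use the same libraries. Their unadjusted p-values for those differences are therefore favoured by the choice. Over all genes the lowest adjusted p in edgeR was 0.255 for the ligature difference and 0.37 for the tissue difference.

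**Figure D2:**
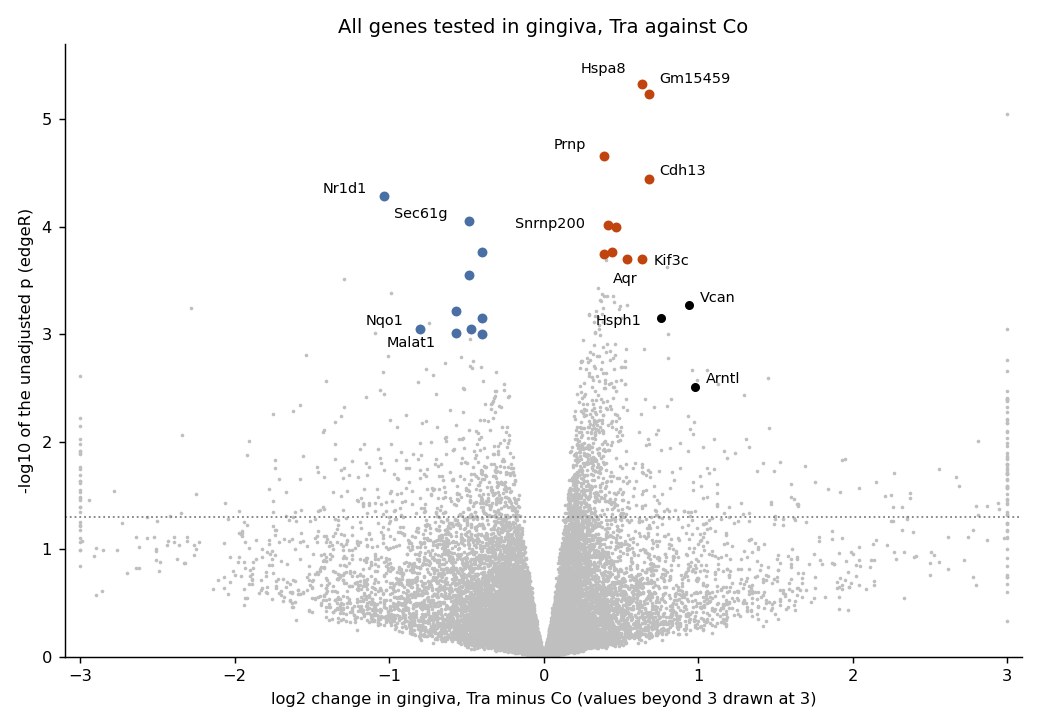
The log2 change of each of the 20143 genes tested in gingiva, Tra minus Co, against -log10 of its unadjusted p, with values beyond 3 drawn at 3 and a dotted line at an unadjusted p of 0.05. Coloured points are the 10 genes with the lowest p in each direction that are abundant and do not overlap between the groups (orange higher, blue lower in Tra), and black points are 3 further genes of the text; Hspa8 and Gm15459 stand highest and Nr1d1 leads the lower side.

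Heat shock chaperones gave the gene with the lowest p. Hspa8 encodes HSC70, the constantly made cytosolic chaperone of the HSP70 family, and had 2021.4, 1974.8, 2294.1 and 2279.3 CPM in Tra libraries 1 to 4, against 1368.9, 1422.1, 1258.8 and 1448.5 CPM in Co libraries 1 to 4. Every Tra library stood above every Co library, with a log2 change of 0.64 ± 0.09 (SE) at an unadjusted p of 4.7e-06 and an adjusted p of 0.0583. The neighbour in rank, Gm15459, is no separate measurement: 91.9% of its 31-base words also occur in Hspa8, so reads of one can be counted for the other. It had 185.6 to 217.7 CPM in Tra and 117.1 to 140.8 in Co, a log2 change of 0.68 ± 0.10 (SE).

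Among the 16 chaperone genes 8 were higher in Tra at an unadjusted p under 0.05 and 0 were lower, against 4.08% and 2.49% of all genes. Their median log2 change was 0.25, and 5 of the 16 had all Tra libraries above all Co libraries, against 3.21% of all genes. Hsph1, which encodes HSP110, a partner that reloads HSP70 with ATP, had 120.2, 105.2, 153.5 and 163.6 CPM in Tra and 79.1, 71.6, 89.4 and 81.1 CPM in Co. Its groups did not overlap, and the log2 change was 0.76 ± 0.18 (SE) at an unadjusted p of 0.0007. Hspa1a, the stress-induced HSP70, had 86.6, 58.9, 106.2 and 117.5 CPM in Tra and 49.2, 55, 65.4 and 74.6 CPM in Co, with Tra 2 inside the Co range (log2 0.60 ± 0.24, unadjusted p = 0.023 in edgeR). Its near-identical copy Hspa1b, with which it can share reads, had 125.6 to 263.1 CPM in Tra and 117.7 to 158.7 in Co (log2 0.55 ± 0.24). Tra 3 and Tra 4 were the higher pair for Hspa8, Hsph1, Hspa1a and Hspa1b alike.

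HSP90 and the partners of both families had smaller differences. Hsp90aa1, the inducible HSP90, had 372.8, 387.7, 462.5 and 471.5 CPM in Tra and 352.8 to 373.9 in Co, a log2 change of 0.22 ± 0.09, while the constitutive Hsp90ab1 overlapped between the groups at 0.24 ± 0.14. Ahsa1, which speeds the ATPase of HSP90, stood at 115.9 to 134.8 CPM in Tra and 95.7 to 108.1 in Co (log2 0.27 ± 0.10), and Dnaja1, which feeds HSP70, at 132.2 to 165.2 in Tra and 116.8 to 137.3 in Co (log2 0.20 ± 0.09). Both the main HSP40, Dnajb1, at 0.03 ± 0.14, and Bag3, which unloads HSP70, at -0.21 ± 0.25, are known to answer to heat and were not separated between the groups. In mitochondria the chaperonin Hspd1 had 316 to 346.4 CPM in Tra and 257.5 to 282.6 in Co without overlap (log2 0.28 ± 0.08, unadjusted p = 0.0051 in edgeR), and its lid Hspe1 had 112.3 to 120.1 in Tra and 108.7 to 125.1 in Co (log2 -0.01 ± 0.09). The others had an unadjusted p above 0.05: Hspa5, the chaperone of the endoplasmic reticulum, was at 0.26 ± 0.13, the small heat shock proteins Hspb1 and Cryab at 0.23 ± 0.17 and 0.48 ± 0.48, and the HSP90 partner Chordc1 at 0.16 ± 0.07. Summed over the 16 genes, the level was 5748 to 7063.2 CPM in Tra and 4746.6 to 5298.7 in Co. The count of 8 depended on single libraries: it was 3 without Tra 3, 4 without Tra 4, 5 without Co 2 or Co 3, and 6 to 10 without any other single library.

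The 4 promoter windows shown were picked for a match and hold the same heat shock motif while the values of their genes differed: Hsph1 and Hspa1a had large log2 changes, Dnaja1 a small one and Hspe1 one near 0, although its window overlaps that of Hspd1. Each run gives 250 bases before to 50 after a transcription start in RefSeq on GRCm38.p6, 5′ to 3′ on the strand of the gene, with matches to GAANNTTC in capitals. Hsph1 is on the minus strand at chr5:149636287-149636586, Hspa1a on the minus strand at chr17:34972107-34972406, Dnaja1 on the plus strand at chr4:40722218-40722517 and Hspe1 on the plus strand at chr1:55087898-55088197.
Hsph1: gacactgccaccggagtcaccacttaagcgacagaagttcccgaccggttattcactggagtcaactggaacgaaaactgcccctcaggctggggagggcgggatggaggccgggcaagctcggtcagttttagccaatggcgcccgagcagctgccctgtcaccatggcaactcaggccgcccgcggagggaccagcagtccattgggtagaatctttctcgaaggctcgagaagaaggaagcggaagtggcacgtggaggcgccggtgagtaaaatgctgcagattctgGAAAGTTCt
Hspa1a: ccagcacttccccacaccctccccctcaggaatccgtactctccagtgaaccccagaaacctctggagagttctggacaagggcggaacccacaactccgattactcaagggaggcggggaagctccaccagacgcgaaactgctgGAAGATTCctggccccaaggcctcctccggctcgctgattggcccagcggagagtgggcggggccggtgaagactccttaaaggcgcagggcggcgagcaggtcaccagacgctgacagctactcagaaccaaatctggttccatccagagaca
Dnaja1: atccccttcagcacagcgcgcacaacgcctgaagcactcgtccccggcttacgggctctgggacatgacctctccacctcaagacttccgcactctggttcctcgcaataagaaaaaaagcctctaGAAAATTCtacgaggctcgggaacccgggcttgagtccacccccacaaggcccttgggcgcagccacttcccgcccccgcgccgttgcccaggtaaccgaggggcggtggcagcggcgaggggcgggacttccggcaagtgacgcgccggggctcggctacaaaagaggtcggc
Hspe1: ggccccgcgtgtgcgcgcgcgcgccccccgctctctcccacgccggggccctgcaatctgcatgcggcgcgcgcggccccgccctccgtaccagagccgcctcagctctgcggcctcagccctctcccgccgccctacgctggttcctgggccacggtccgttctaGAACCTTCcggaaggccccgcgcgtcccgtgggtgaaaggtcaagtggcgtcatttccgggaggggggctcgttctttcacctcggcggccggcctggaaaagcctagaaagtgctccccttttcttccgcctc
The motif searched, GAANNTTC, reads the same on both strands, so 1 search covers both. It occurred in at least 1 window of 9 of the 12 chaperone genes with a window, namely in 10 of 17 windows (58.8%), against 2582 of all 32851 windows of this length (7.86%). The 3 genes with a window and no match were Dnajb1, Hspa5 and Ahsa1, and no window was used here for Hspa8, Hsp90aa1, Hsp90ab1 and Cryab. A window of Hspd1 runs the other way over 285 of the same bases as that of Hspe1 and holds the same match, and the windows of Hspa1a and Hspa1b differ at 4 bases. The windows of Hsph1 overlap each other and hold the same match, so the 10 windows with a match are not all separate. Both other windows of Dnaja1, at other starts of the gene, and the other window of Hspd1 hold no match. Counted from the transcription start, the match shown begins at 41 for Hsph1, -104 for Hspa1a, -124 for Dnaja1 and -84 for Hspe1. That of Hsph1 thus lies after the start, as does the match of Bag3 at 42. A match is a description of the letters and not evidence of binding.

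The chaperones were also read in LiTra, Li and bone libraries. The differences between effects given below also hold the Tra and Co gingiva libraries, in which 8 of the 16 were already higher. Their p-values and counts are therefore no separate support. Gingiva and bone libraries carry the same numbers within a group, so they may come from the same mice, which the labels do not state. The Li libraries were uneven: neutrophil genes summed to 8231.6, 6460.7, 1197 and 1201.7 CPM in Li libraries 1 to 4. The sums were 2618.7 to 9585.1 in LiTra and 221.3 to 1065.4 in Co. The part of this unevenness in the values beside a ligature was not tested. Where a ligature was present, Hspa8 differed little between LiTra and Li, with a log2 change of 0.06 ± 0.09, and the difference between this effect and that of overload alone was -0.59 (unadjusted p = 0.00043, adjusted p = 0.264 in edgeR). Hspa1a was lower in LiTra than in Li, with a log2 change of -0.78 ± 0.24, which made its difference between the settings -1.38 (unadjusted p = 0.00091). Over the list 4 chaperones were higher and 6 lower in LiTra at an unadjusted p under 0.05, against 6.84% and 11.7% of all genes, and for 7 of the 16 the effect was lower beside a ligature at that p, against 6.76% of all genes. No gene passed the adjusted test of this difference in edgeR (0% of 20143), against 183 in DESeq2. In bone, Hspa8 was higher in Tra than in Co by 0.61 ± 0.13 (unadjusted p = 0.00026) and Hsph1 by 0.81 ± 0.29. The bone list had 8 higher and 0 lower members, against 5.19% and 4.35% of all genes there, with a median of 0.33, and for Hspa8 the test of the difference between gingiva and bone gave an unadjusted p of 0.73, and 0.69 with group and number as a block. Bone Tra 3 and bone Co 3 held many nasal gland transcripts, and without both the count was 5 higher and 0 lower and the Hspa8 change 0.51 ± 0.11. No gene passed the adjusted test in bone (0% of 21205) or of the tissue difference (0% of 22559, against 61 genes in DESeq2), and 1 of the 16 chaperones differed between the tissues at an unadjusted p under 0.05, against 6.45% of all genes.

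**Figure D3:**
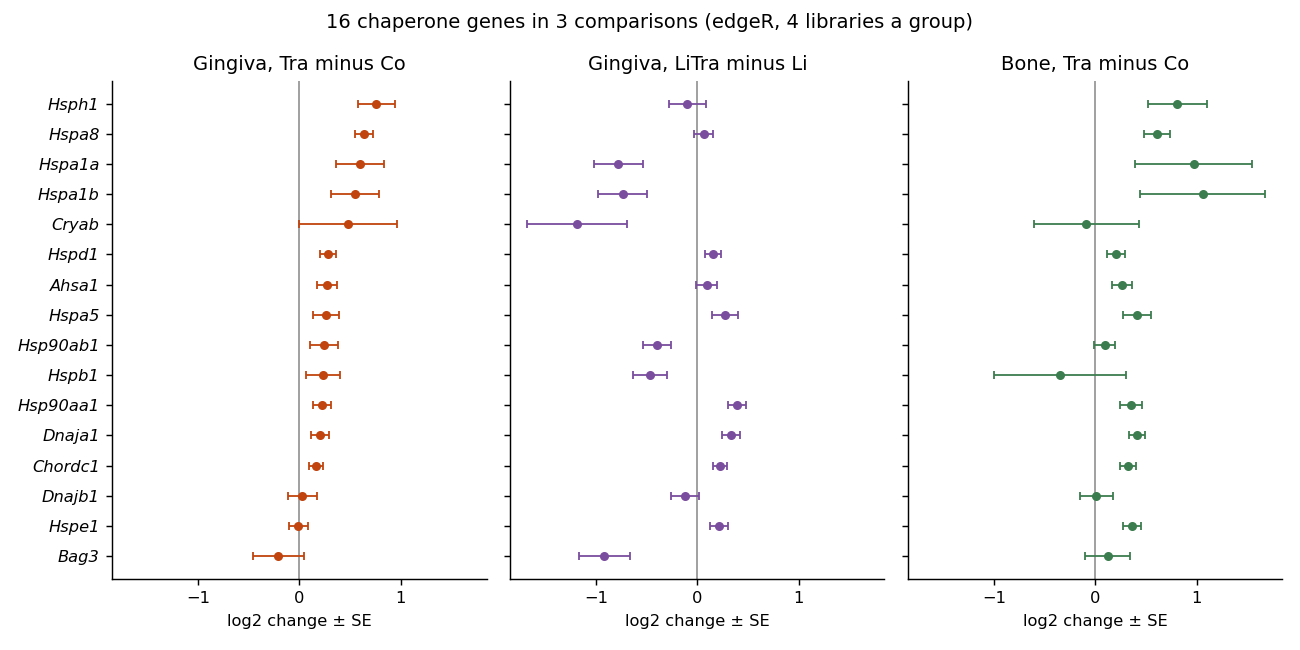
The log2 change ± SE of 16 chaperone genes in 3 comparisons that share no library: gingiva Tra minus Co, gingiva LiTra minus Li, and bone Tra minus Co, 4 libraries a group. Hsph1 and Hspa8 lie right of 0 in gingiva without a ligature and in bone, and near 0 beside a ligature, where Hspa1a, Hspa1b, Cryab and Bag3 lie left of it.

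Clock genes gave the gene with the lowest p on the lower side. Nr1d1, which encodes REV-ERBα, a repressor in the circadian clock, had 54.8, 33.9, 36.8 and 33.8 CPM in Tra libraries 1 to 4, against 81.2, 74.5, 83.7 and 85.0 CPM in Co libraries 1 to 4. Tra 1 stood apart from the other Tra libraries and still below all Co libraries, and the log2 change was -1.03 ± 0.18 (unadjusted p = 5.2e-05, adjusted p = 0.174 in edgeR). Arntl, which encodes the clock activator BMAL1 and is repressed by REV-ERBα, had 9.04, 9.72, 21.7 and 15.8 CPM in Tra and 6.39 to 8.15 in Co, a log2 change of 0.98 ± 0.28 without overlap. Nfil3, a repressor of clock output, was higher (0.82 ± 0.33) and Bhlhe41, a repressor of the core loop, lower (-0.59 ± 0.21) at an unadjusted p under 0.05. These were 2 higher and 2 lower of the 20 clock genes, against 4.08% of all genes higher and 2.49% lower, with a median of -0.16. The lower count was 6 without Tra 1 and 1 without Co 3, and the higher count was 1 without Tra 3, Co 1 or Co 3 and at most 3 without any other single library.

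Within Tra the clock genes were not alike. The output gene Dbp had 127.1, 75.7, 30.1 and 39.4 CPM in Tra libraries 1 to 4, against 126.7, 95.0, 130.1 and 103.7 in Co. The repressor Cry1 had 14.4, 18, 37.8 and 43 CPM in Tra, against 18.6, 15.9, 18.9 and 21.7 in Co. For both genes Tra 3 and Tra 4 lay far outside the Co range, while Tra 1 and Tra 2 lay inside it or closer to it. Ciart, another repressor, had 5.49 and 4.73 CPM in Tra 3 and Tra 4, with 14.0 and 10.4 in Tra 1 and Tra 2 and 13.3 to 13.8 in Co. The hour at which each mouse was sampled is not in the labels, so an effect of the overload on these genes and one of the sampling hour cannot be told apart. In bone Nr1d1 was lower in Tra at -1.07 ± 0.32 (unadjusted p = 0.0047 in edgeR) and Dbp at -0.79 ± 0.33. The bone clock list as a whole had 2 of 20 members higher and 2 lower, with a median of 0.13. The shares of all genes there were 5.19% and 4.35%. Without bone Tra 3 and bone Co 3 the count was 0 higher and 1 lower. For LiTra against Li the change of Nr1d1 was -0.52 ± 0.18. In that comparison 0 clock genes were higher and 7 lower, against 6.84% and 11.7% of all genes.

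Glucocorticoid response genes, which the stress hormone corticosterone switches on, had 4 of 16 members higher in Tra at an unadjusted p under 0.05 and 0 lower, against 4.08% and 2.49% of all genes, with a median log2 change of 0.42. Sgk1, a kinase of salt balance and survival, had 156.1, 168.4, 180.7 and 165.1 CPM in Tra and 109, 139.8, 136.6 and 101.8 in Co, without overlap (log2 0.46 ± 0.12, unadjusted p = 0.0012 in edgeR). Tsc22d3, which encodes the anti-inflammatory factor GILZ, had 347.2, 444.8, 328.6 and 251.2 CPM in Tra and 155.3 to 243.8 in Co (log2 0.67 ± 0.23). The metal-binding metallothionein Mt1 had 222.9 to 261.1 CPM in Tra and 163.6 to 199 in Co (log2 0.41 ± 0.16). Angptl4, an inhibitor of lipoprotein lipase, was high in Tra 1 and Tra 2 alone, with 10.5 and 22.1 CPM, against 1.24 to 3.45 in Co. Fkbp5, a co-chaperone of the receptor, had 39.5 to 47.7 CPM in Tra and 23.4 to 38.4 in Co (log2 0.43 ± 0.37), while Per1 (-0.12 ± 0.17) and Klf9 (-0.03 ± 0.22) overlapped. Without Tra 2 the count was 2 higher and the change of Angptl4 was 1.08 (unadjusted p = 0.12). In bone 4 of the 16 were higher and 0 lower, Sgk1 among them at 0.38 ± 0.16, against 5.19% and 4.35% of all genes there. Beside a ligature 0 were higher and 2 lower, against 6.84% and 11.7% of all genes, so the lower share was near that of all genes.

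**Figure D4:**
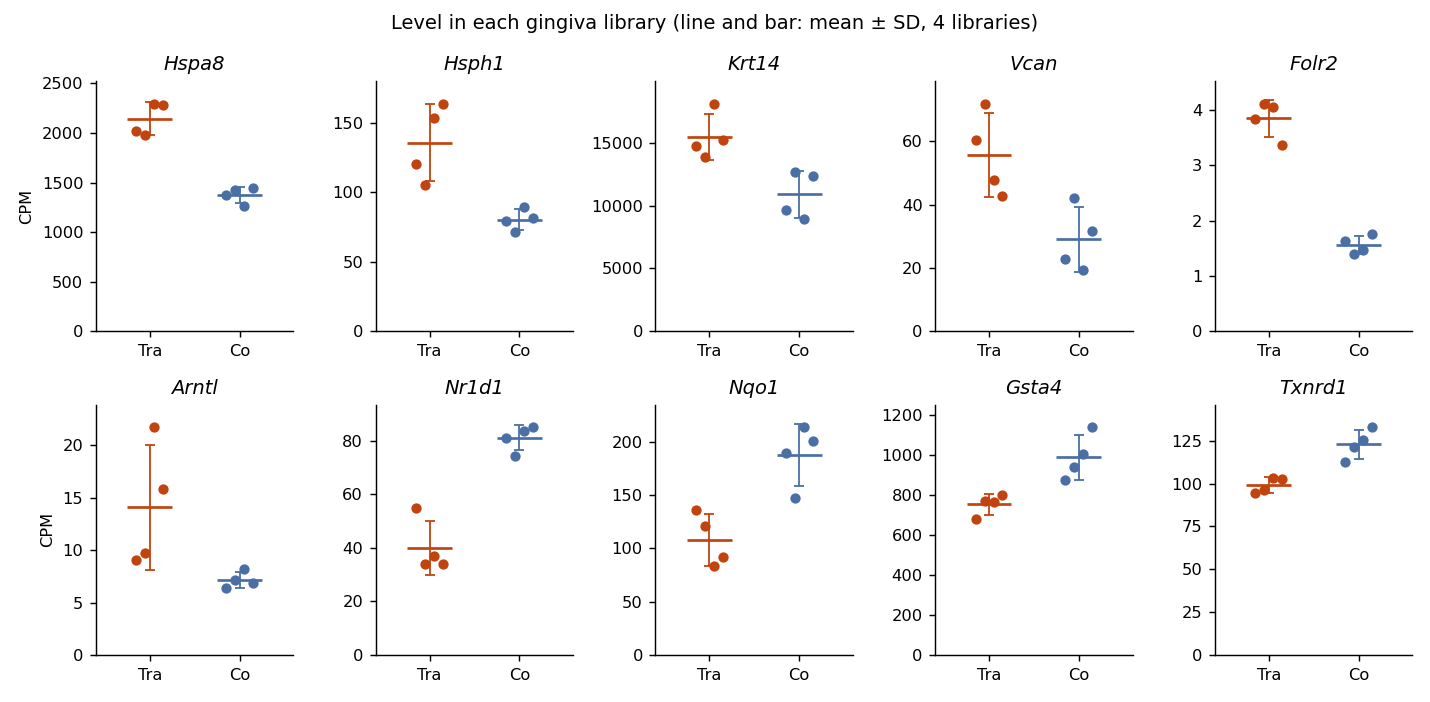
CPM of 10 genes in each gingiva library, Tra left and Co right, with 1 point a library and a line and bar for the mean ± SD of 4 libraries. The Tra and Co libraries do not overlap in any of these 10 genes, none of which passed the adjusted test. Over all genes tested, 3.21% were higher and 1.87% lower in Tra without overlap.

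Other genes led the higher side by p. Prnp, the prion protein gene, had 141.8, 145.5, 146.2 and 139 CPM in Tra and 117.6, 109.3, 97.9 and 111.9 in Co, a small and even difference (log2 0.39 ± 0.06, unadjusted p = 2.2e-05, adjusted p = 0.112 in edgeR). Cdh13, which encodes T-cadherin, a cadherin without a cytoplasmic tail, had 63.1 to 69.6 CPM in Tra and 34.9, 43, 44.1 and 43.9 in Co (log2 0.68 ± 0.12). Beside a ligature Cdh13 went the other way, at -0.32 ± 0.12 in LiTra against Li, and the difference between the 2 effects was -1 (unadjusted p = 2.1e-05 in edgeR). Cdh13 was picked for its low p in Tra against Co, which enters this difference, so that p is no separate support. The lysosomal protease Tpp1 (0.47 ± 0.09), the phosphatase regulator Ppme1 (0.44 ± 0.09) and the kinesin motor Kif3c (0.64 ± 0.13) followed. Another 3 act on RNA: Snrnp200, the helicase that unwinds U4 from U6 in the spliceosome, had 126.1 to 151.3 CPM in Tra and 98.9 to 104.9 in Co (log2 0.42 ± 0.08), Aqr, an intron-binding helicase, 76.5 to 89.2 in Tra and 50 to 63.6 in Co (log2 0.54 ± 0.11), and Rbm28, a nucleolar protein, 62.9 to 67.2 in Tra and 44.4 to 54.3 in Co (log2 0.39 ± 0.08). In bone Snrnp200 was at -0.05 ± 0.09 and Aqr at 0.02 ± 0.09, and the test of the difference between the tissues in edgeR gave an unadjusted p of 0.00064 for Snrnp200 and 0.0012 for Aqr. Both genes were picked by the gingiva part of this difference.

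On the lower side Sec61g, a subunit of the channel through which proteins enter the endoplasmic reticulum, had 38.6 to 45.1 CPM in Tra and 52.9 to 64.5 in Co (log2 -0.48 ± 0.09, unadjusted p = 8.9e-05 in edgeR). Malat1, a nuclear non-coding RNA, had 346.3, 435.1, 433.9 and 334.5 CPM in Tra and 666.1, 464.4, 597.5 and 579.3 in Co (log2 -0.57 ± 0.14). Beside a ligature the signs were opposite: Sec61g was at 0.18 ± 0.09 in LiTra against Li, a difference between the effects of 0.67 (unadjusted p = 0.00011), and Malat1 at 0.21 ± 0.14, a difference of 0.79 (unadjusted p = 0.0013). Gipc1, an adaptor of receptor traffic, was at -0.40 ± 0.10, Rgp1, a partner in the activation of Rab6 at the Golgi, at -0.40 ± 0.10, and Taf9b, a cofactor of transcription, at -0.47 ± 0.11. Rex1bd (-0.40 ± 0.08), Fam204a (-0.48 ± 0.10) and 2200002D01Rik (-0.57 ± 0.13), genes of little known function, complete the 10. The next lowest adjusted p after Hspa8 and Gm15459 was that of Cyp4f37, a cytochrome P450 gene chosen after its values were seen. It had 13, 6, 29 and 7 counts in Tra libraries 1 to 4 and 0 in all Co libraries, which is at least 17-fold higher when set against 3 counts over the Co group (adjusted p = 0.0601 in edgeR).

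Genes that defend against oxidants and electrophiles, many of them targets of the factor NRF2, were read in 2 lists, over oxidative stress and over xenobiotics. Nqo1, a quinone reductase, had 135.7, 121.2, 83.5 and 92.0 CPM in Tra and 189.7, 146.9, 213.6 and 201.3 in Co, without overlap (log2 -0.80 ± 0.19, unadjusted p = 0.00089 in edgeR). Gsta4, a glutathione transferase for lipid aldehydes, had 680.9 to 800.6 CPM in Tra and 875.3 to 1137.8 in Co (log2 -0.39 ± 0.11), and Txnrd1, thioredoxin reductase, 94.4 to 103.3 in Tra and 112.5 to 132.8 in Co (log2 -0.31 ± 0.08). The 2 subunits of the enzyme that starts glutathione synthesis, Gclc (-0.48 ± 0.16) and Gclm (-0.44 ± 0.14), and the cystine importer Slc7a11 (-0.59 ± 0.23) had every Tra library below Co 2, Co 3 and Co 4, with Co 1 within or below the Tra range. Slc7a11 had 148.4, 149.6, 133.4 and 154.3 CPM in Tra and 119.9, 284.4, 225.5 and 249.2 in Co. The heme-degrading enzyme Hmox1, another NRF2 target, was higher, with 129.7, 134.8, 98.1 and 86.0 CPM in Tra and 65.8 to 94.0 in Co (log2 0.44 ± 0.14). Of the 16 genes for metallothioneins and oxidative stress 2 were higher and 4 lower at an unadjusted p under 0.05 (median -0.16), and of 20 for xenobiotics and retinoids 1 was higher and 3 lower (median -0.13), against 4.08% of all genes higher and 2.49% lower. With single libraries left out, Srxn1 and Gsta2 of the same lists were at -0.15 to 0 and -0.16 to -0.06. In bone the oxidative stress list had 2 of 16 higher and 0 lower (median 0.01), against 5.19% and 4.35% of all genes there. The xenobiotic list had 0 higher and 0 lower of 19 in bone. Beside a ligature Gsta4 was higher in LiTra (0.36 ± 0.11). The difference between the effects in edgeR was 0.76 (unadjusted p = 0.0002) for Gsta4 and 1.12 (unadjusted p = 0.00092) for Nqo1.

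In the epithelium 2 of the 3 basal keratins in the list, Krt14 and Krt5, were higher. Krt14 had 14764.5, 13872, 18116.6 and 15219.7 CPM in Tra and 9692.7, 12687.2, 8934.6 and 12341.1 in Co, without overlap (log2 0.51 ± 0.14, unadjusted p = 0.002 in edgeR). Its partner Krt5 had 5880.1 to 8131.2 CPM in Tra and 4934.2 to 6670.9 in Co (log2 0.31 ± 0.14), and Trp63, the master factor of basal cells, 276 to 337.2 in Tra and 211.9 to 262.2 in Co (log2 0.37 ± 0.11). The third basal keratin, Krt15, had 878.6 to 1128.9 CPM in Tra and 841.6 to 1372.9 in Co (log2 -0.18 ± 0.43). In total 3 were higher and 0 lower of 14 genes of the basal layer and its attachment, against 4.08% of all genes higher and 2.49% lower, and the others, among them the hemidesmosome genes Itgb4 (-0.21 ± 0.24) and Col17a1 (0.08 ± 0.16), left the median at 0.06. Of 19 genes of the upper layers and the cornified envelope 0 were higher and 0 lower, Krt13 at 0.21 ± 0.34, Krt76 at 0.11 ± 0.46 and Lor at -0.25 ± 0.41 being examples. Of 16 desmosome and tight junction genes 0 were higher and 0 lower, with a median of 0.02. Among 15 stress keratins and alarm proteins 2 were higher, a count that was 0 without Co 1 or without Co 3 and 1 without any other single library except Tra 1. They were Krt16 with 4394.2 to 6407.2 CPM in Tra and 2987.5 to 4804.9 in Co (log2 0.51 ± 0.21) and Sprr2a3 (1.65 ± 0.73, and 1.17 with unadjusted p = 0.14 without Tra 2), while Krt6a was at 0.18 ± 0.19. Of 22 cell cycle genes 0 were higher and 0 lower (median -0.08), but 5 were lower without Tra 3, 4 without Co 1, 3 without Tra 4 and 1 without Co 3, and 1 was higher without Co 2 or without Co 4.

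Connective tissue genes were higher in part. Vcan encodes versican, a large proteoglycan of provisional matrix, and had 60.6, 71.9, 47.7 and 42.6 CPM in Tra, against 22.9, 42.0, 19.3 and 31.8 in Co. The lowest Tra library was just above the highest Co library, and the log2 change was 0.94 ± 0.22 (unadjusted p = 0.00054, adjusted p = 0.326 in edgeR). Vcan was also higher in LiTra than in Li, by 0.82 ± 0.21 (unadjusted p = 0.0016), and the difference between the 2 effects was -0.12 ± 0.30 (unadjusted p = 0.69). Pcolce, the enhancer of procollagen C-proteinase, had 73.9 to 82.1 CPM in Tra and 38.1 to 72.5 in Co (log2 0.48 ± 0.16), and the fibrillin Fbn1 64.5, 70.4, 39.1 and 36 in Tra and 24.6 to 41.5 in Co (log2 0.74 ± 0.32, and 0.57 with unadjusted p = 0.12 without Tra 2). Of the 19 fibroblast collagen and matrix genes these 3 were higher and 0 lower, against 4.08% of all genes higher and 2.49% lower, with a median of 0.26. The fibrillar collagens did not separate: Col1a1 had 464.4 to 1873.4 CPM in Tra and 760.3 to 1815.5 in Co (log2 -0.28 ± 0.44), Col1a2 was at 0.07 ± 0.33 and Col3a1 at 0.40 ± 0.29. Another 2 higher genes encode antagonists of secreted signals, the Wnt inhibitor Wif1 with 78.6 to 92.9 CPM in Tra and 43.7 to 70.8 in Co (log2 0.63 ± 0.20) and the activin inhibitor Fst with 16.1 to 17.3 in Tra and 8.97 to 14.6 in Co (log2 0.51 ± 0.20), the only 2 of 24 Wnt, BMP and TGF-β genes at an unadjusted p under 0.05, with 1 higher without Co 3 or without Co 4.

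Genes known to answer to mechanical load overlapped for the most part, as did most of all genes. Over all genes 3.21% were higher and 1.87% lower without overlap. Of 18 load and YAP target genes 1 was higher and 1 lower, against 4.08% of all genes higher and 2.49% lower, and the 2 CCN matrix proteins, Ccn2 with 49.2 to 66.7 CPM in Tra and 31.3 to 54.6 in Co and Ccn1 with 38.2 to 56.4 in Tra and 34.1 to 96.3 in Co, overlapped. The higher one, Ankrd1, had 7.17, 28.3, 0.347 and 0.754 CPM in Tra and 0.608 to 2.06 in Co, so that Tra 1 and Tra 2 alone were high, and without Tra 2 its change was 1.14 (unadjusted p = 0.35). It is also a gene of striated muscle. Skeletal muscle genes summed to 12351, 3395.7, 170.1 and 448.7 CPM in Tra libraries 1 to 4 and to 234 to 4866.9 in Co. The part of muscle in the values of Ankrd1 was not tested. The mechanosensitive channel gene Piezo1 was at -0.20 ± 0.16. Of 20 immediate early genes 0 were higher and 1 lower, Egr1 with 7.51, 19.5, 29.2 and 19.8 CPM in Tra and 18.6 to 47.2 in Co (log2 -0.98 ± 0.43), and Fos was at -0.23 ± 0.55.

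Inflammatory mediators overlapped too, as most of all genes did. Il1b had 39.2, 85.9, 4.67 and 24.3 CPM in Tra and 18.2, 94.7, 33.9 and 32.5 in Co (log2 -0.22 ± 0.80). Tnf was at -0.48 ± 0.43, the neutrophil attractants Cxcl1 and Cxcl2 at -0.19 ± 0.48 and 0.35 ± 0.74, the alarmin S100a8 at -0.44 ± 0.70 and the prostaglandin synthase Ptgs2 at 0.34 ± 0.70. Il6 stood at 0 in 3 Tra libraries and 0.165 CPM in Tra 4, and at 0 to 0.0971 in Co. The collagenase Mmp13 had 24.3, 128.7, 49.2 and 61.5 CPM in Tra and 34.2 to 50.4 in Co (log2 0.59 ± 0.47), Mmp3 was at 1.20 ± 0.84, and Postn, a ligament matrix protein, at -0.02 ± 0.24. Without Tra 2 the change of Mmp13 was 0.04, that of Mmp3 0.66 and that of Cxcl2 -0.63. Of 23 interleukin and TNF family genes tested 1 was higher and 0 lower, against 4.08% of all genes higher and 2.49% lower, and of 22 chemokines 1 was higher, Ccl9 (1.17, and 0.28 with unadjusted p = 0.52 without Tra 2), and 0 lower. The gene of the cytokine list was Tnfsf11, which encodes RANKL, with 0.517, 3.53, 2.17 and 1.15 CPM in Tra and 0.267, 1.03, 0.264 and 0.847 in Co (log2 1.62 ± 0.69, unadjusted p = 0.034 in edgeR). Without Tra 2 its change was 1.10 (unadjusted p = 0.14), and its decoy receptor Tnfrsf11b overlapped between the groups at -0.25 ± 0.32.

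Immune cell markers were uneven between libraries. Macrophage genes had 4 of 18 members higher in Tra at an unadjusted p under 0.05 and 0 lower, against 4.08% and 2.49% of all genes, with a median of 0.41, and their sum was 403.7, 842.1, 400.4 and 388.3 CPM in Tra and 315.3, 391.3, 397.5 and 328 in Co. Folr2, a folate receptor of resident tissue macrophages, had 3.84, 4.11, 4.06 and 3.37 CPM in Tra and 1.63, 1.39, 1.46 and 1.75 in Co, without overlap and with no library apart (log2 1.30 ± 0.38, unadjusted p = 0.0037 in edgeR). Csf1r, the receptor on which macrophages depend, had 37.5, 66.8, 43.1 and 37.8 CPM in Tra and 24.4 to 32.7 in Co (log2 0.73 ± 0.24). The scavenger receptor Cd163, another gene of resident macrophages, had 13.5 to 23.1 CPM in Tra and 7.52 to 13.4 in Co (log2 0.82 ± 0.44). Cd68, a lysosomal protein of macrophages, was high in Tra 2 alone, with 27.4 CPM against 7.09 to 12 in Co. The higher count was also 2 without Co 2 or without Co 4 and 6 without Tra 3. Without Tra 2, 2 of the 18 were higher and the median was 0.03, while Folr2 stood at 1.27 and Csf1r at 0.50. In LiTra against Li the change of Folr2 was -0.43 ± 0.37 (difference between the effects -1.73, unadjusted p = 0.0053).

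Osteoclast genes followed Tra 2. Of 12 members 4 were higher and 0 lower (median 0.60), against 4.08% of all genes higher and 2.49% lower, and without Tra 2 the count was 1 and the median -0.13. The protease Ctsk had 68.1, 296.6, 95.9 and 87.8 CPM in Tra and 82.4 to 117.6 in Co, and the acid phosphatase Acp5 32.6, 135, 47.9 and 35.9 in Tra and 33.5 to 51.4 in Co. The nasal gland list had 10 of 16 tested members higher with Tra 2 and 3 without it. T and NK cell genes had 0 of 23 members higher and 3 lower, with a median of -0.48, and the lower count was 1 without Tra 1, Tra 3, Tra 4, Co 2 or Co 4 and 2 without Co 3, the share over all genes being 2.49%. Foxp3, the factor of regulatory T cells, had 0.0739, 0.345, 0.109 and 0.188 CPM in Tra and 0.36 to 0.863 in Co, and Cd3g, a part of the T cell receptor complex, 0.63 to 1.28 in Tra and 1.6 to 2.2 in Co (log2 -1.20 ± 0.52). These levels rest on few counts. B and plasma cell genes had 0 of 14 higher and 0 lower with a median of -0.83, and neutrophil genes 0 of 18 higher and 1 lower with a median of -0.45.

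Hypoxia and glycolysis genes had 3 of 16 members higher and 1 lower, against 4.08% of all genes higher and 2.49% lower. The higher count was 1 without Co 1 or without Co 3, and the lower count ran from 0 to 2 with single libraries left out (2 without Tra 1, 0 without Tra 3, Tra 4, Co 3 or Co 4). Eno1, a glycolytic enolase, had 707.8, 734, 722.5 and 721.1 CPM in Tra and 515.4, 634.1, 517 and 644.1 in Co, without overlap (log2 0.32 ± 0.12). The phosphofructokinase Pfkp had 91.9 to 119.4 CPM in Tra and 73.7 to 89.3 in Co (log2 0.31 ± 0.09). The vessel growth factor Vegfa, itself a hypoxia target, was lower, with 74 to 107 CPM in Tra and 96.7 to 130.5 in Co (log2 -0.33 ± 0.14). The 13 genes of the mitochondrial genome had 0 higher and 0 lower members, with sums of 26996.6 to 49416.2 CPM in Tra and 31344.2 to 42299.7 in Co. Without Tra 1 the lower count was 5 of the 13 and the median -0.27, and without Co 2 the lower count was 1.

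**Figure D5:**
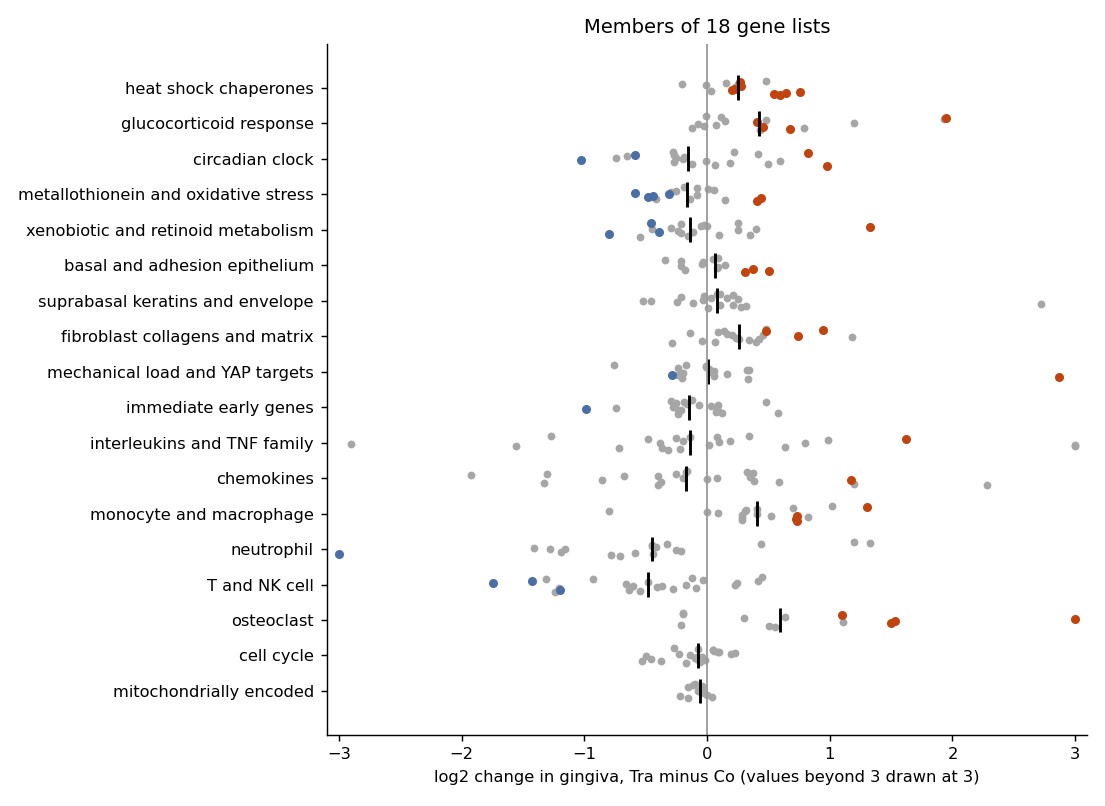
The log2 change, Tra minus Co in gingiva, of each tested member of 18 gene lists (values beyond 3 drawn at 3), orange or blue where the unadjusted p was under 0.05 and grey elsewhere, with a black bar at the median. The chaperone list has 8 of 16 members coloured, all on the higher side, and the lists for upper epithelial layers, cell cycle and mitochondrial genes have none in the fit of all libraries.

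Where a ligature was present the same resin gave adjusted calls. LiTra against Li had 17 genes past the adjusted threshold in edgeR (0.0844% of 20143), 5 higher and 12 lower in LiTra. In Tra against Co these 17 had log2 changes of -0.43 to 0.52 and none passed. Among them Zfp750, a factor of late epithelial differentiation, was at -1.14 ± 0.19 in LiTra against Li and at -0.20 ± 0.19 in Tra against Co. A call in one setting and none in the other is not a test of their difference, which no gene passed after adjustment. Genes of the upper epithelial layers summed to 25058.9, 23296.7, 78750.3 and 72522.9 CPM in Li libraries 1 to 4. Their sums were 19756.5 to 39678.4 in LiTra and 64972.6 to 92373.7 in Co. Li 3 and Li 4 thus lay within the Co range for these genes. The part of this split in the calls was not tested.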

How the data were processed

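Poly(A) RNA of gingiva and bone was sequenced, and the authors deposited estimated counts per gene, which were rounded to whole numbers. Per the submitters' processing notes, the tools were FastQC 0.11.9 and Trimmomatic 0.39, HISAT2 2.2.1, DESeq2 1.32.0, and StringTie 2.1.7, and the build was GRCm39. How reads were assigned to genes (annotation, strand, reads that match several genes) is not given in the sources used here. Reads of near-identical copies or of overlapping genes may therefore be counted for either. Of 55359 gene IDs 52083 matched a symbol in the gene version table of GENCODE (release 21), and the 3276 others held at most 0.409% of the counts of a library.

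The 16 gingiva libraries were fitted as 4 groups in edgeR 4.0.16 (quasi-likelihood F-test, TMM, filterByExpr with a minimum count of 10 and total of 15, 12 residual degrees of freedom) under R 4.3.3. Bone was fitted alike, and the tissue difference in 1 fit of all 32 libraries. P-values were Benjamini-Hochberg adjusted over all genes tested. Log2 errors are standard errors (SE) of the fit. The steps were tested on simulated data, in which counts varied independently between genes and no other tissue was mixed in. Genes to be changed were drawn only from those above a minimum level. They called, in the right direction, 13 of 50 genes changed 1.5-fold, 33 of 50 changed 2-fold and 45 of 50 changed 4-fold. Among 19447 unchanged genes there were 9 false calls. Changes of about 1.5-fold were thus mostly missed in the simulation. Its shares need not hold for genes of low count or for libraries with other tissues mixed in. Alternatives used limma 3.58.1 (voom with quality weights), DESeq2 1.42.0, other scalings and filters, and lowess trends (span 0.3) on length or GC. Tables and plots used Python 3.11.15, pandas 2.3.3 and matplotlib 3.10.9.

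Named genes were the 10 with the lowest p in each direction among genes without overlap and with a mean log2 CPM of at least 1 (577 higher and 250 lower candidates), up to 3 of the lowest p in each of 43 lists (725 genes), and a panel of 25 genes. Other list members named in the text, and Gm15459 and Cyp4f37, were chosen after their values were seen. The comparison and the lists were chosen with earlier results of these data known. Within a group, no 2 gingiva libraries agreed within sampling noise (chi-square per degree of freedom of 38.6 to 302).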

Additional observations from a re-analysis of the deposited data

Results flagged for a closer look

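Of the 162 genes named by the rule, each tested in both groups (324 groups of 4 libraries), 27 genes had 28 groups in which 1 library stood apart from the other 3 by more than Dixon's 95% limit. For normally distributed values chance alone gives about 1 group in 20, which need not hold for CPM. A group with 3 libraries at 0 is flagged whenever the remaining library is above 0, as for Cxcr1, Calcr and Il6. Each value is followed by the range of the other 3 libraries of the same group.

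Tra 1 was the high library for Nr1d1 (54.8 CPM, against 33.8 to 36.8 in the other 3), Cfd (14.7 CPM, against 7.21 to 7.98 in the other 3) and Bpifb9a (254.8 CPM, against 0.847 to 1.81 in the other 3). The same library was high for Bpifb9b (530.7 CPM, against 1.56 to 4.01 in the other 3). Tra 2 was the high library for Ltf (457 CPM, against 59.4 to 109.6 in the other 3), Csn3 (4.8 CPM, against 0.394 to 0.73 in the other 3) and C3ar1 (15 CPM, against 5.32 to 5.84 in the other 3). The same library was high for Cxcr1 (0.0862 CPM, against 0 in the other 3), Cd68 (27.4 CPM, against 9.87 to 11.7 in the other 3) and Pip (4.76 CPM, against 0 to 0.394 in the other 3). The same library was high for Obp2b (3760.3 CPM, against 0 to 9.73 in the other 3), Trpm5 (1.31 CPM, against 0 to 0.188 in the other 3) and Krt1 (265.2 CPM, against 200.2 to 206.3 in the other 3). Tra 4 was the high library for Isg15 (40.2 CPM, against 1.26 to 7.5 in the other 3), Oas1a (19.4 CPM, against 2.19 to 4.89 in the other 3) and Selp (19 CPM, against 9.27 to 10.3 in the other 3). The same library was high for Il6 (0.165 CPM, against 0 in the other 3). Co 1 was the high library for Pmel (2.14 CPM, against 1.13 to 1.15 in the other 3). Co 3 was the high library for Dmp1 (33.1 CPM, against 2.49 to 5.71 in the other 3) and Obp2b (2.4 CPM, against 0.534 to 0.695 in the other 3). Co 4 was the high library for Krt2 (0.688 CPM, against 0 to 0.0959 in the other 3), Iigp1 (24.3 CPM, against 5.29 to 6.57 in the other 3) and Calcr (0.106 CPM, against 0 in the other 3). The same library was high for Ccl2 (3.73 CPM, against 0.437 to 0.982 in the other 3). Tra 3 was the low library for Bhlhe41 (16.7 CPM, against 22.9 to 24.1 in the other 3). Co 1 was the low library for Cdh13 (34.9 CPM, against 43 to 44.1 in the other 3), Gclc (194.8 CPM, against 282.9 to 295.9 in the other 3) and Odam (281 CPM, against 596.5 to 611.8 in the other 3).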

How the results depend on the processing

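Between Tra and Co the count of 0 genes became 2 with a filter of CPM above 1 in at least 4 libraries, 2 with DESeq2 size factors in edgeR, 88 with the Wald test of DESeq2 (65 higher, 23 lower), 4 with limma-voom, 3 at an adjusted p under 0.1, and 2 with the length trend removed, an alternative chosen after seeing the data. It was 0 to 0 with single libraries left out, and 0 at an adjusted p under 0.01, with library totals, with no filter, with the 8 libraries alone and with the GC trend removed. The test of the ligature difference gave 183 genes in DESeq2 and 0 to 1 with single libraries left out (1 without gingiva Co 4), and the tissue difference gave 61 in DESeq2 and 0 to 2 (2 without bone Co 1). With a replicate block all 3 counts were 0. A replicate block of group and number across tissues, chosen after seeing the data, also gave 0 genes for the tissue difference (lowest adjusted p = 0.715 in edgeR). Gingiva and bone libraries with the same group and number correlated in their deviations at -0.15 to 0.13, so that block is not shown to pair them. The deviations of Tra and Co libraries with the same number correlated at 0.1, -0.16, -0.18 and -0.13, and those with unlike numbers at -0.64 to 0.48. The numbers are thus not shown to pair these libraries, and such correlations cannot exclude a pairing.

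Of 2913 alternative values of 163 genes, 2851 kept their direction and side of the threshold, 36 passed it and 26 changed sign in 13 genes, none of which had passed. With single libraries left out, the log2 changes of the genes concerned ran over these ranges: Ccl2 -0.70 to 0.56, Ccn1 -0.37 to 0.22, Cxcl1 -0.57 to 0.13, Cxcl2 -0.63 to 0.71, Dmp1 -1.48 to 0.21, Fos -0.63 to 0.15, Il1b -0.98 to 0.45, Isg15 -0.63 to 1.85, Krt1 -0.22 to 0.25, Oas1a -0.25 to 1.46, Postn -0.19 to 0.12, S100a8 -0.79 to 0.09 and Trpm5 -1.36 to 1.59. Limma-voom gave Cxcl2 -0.34 and Trpm5 -1.11, the replicate block Cxcl2 -0.36, the GC trend Krt1 -0.01 and Postn 0.02, and library totals Krt1 -0.05. The cause was not tested. With 4 libraries a group, genes of low count such as Il6 and Foxp3 have wide errors, also without Tra 2 (SE of 2.29 and 0.72).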

Other observations

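Lists added after the values were seen describe genes of RNA and protein synthesis and of respiration. They hold only genes with a mean log2 CPM of at least 1, of which 711 of 13966 were higher in Tra and 371 lower at an unadjusted p under 0.05. Of 79 nucleolar factors of ribosome building 20 were higher and 1 lower at that p, with a median log2 change of 0.09. Rbm28, picked above for its low p, is among them. Of 53 spliceosome factors 11 were higher and 3 lower with a median of 0, of 81 cytosolic ribosomal proteins 2 were higher and 2 lower, and of 36 subunits of respiratory complex I 1 was higher and 3 lower. Over all 13942 abundant genes with a transcript length, such counts differed with gene properties. Split into 5 groups of 2788 or 2789 genes, those by transcript length had 85 to 166 higher genes (85 in the shortest, 166 in the longest), those by GC content 71 to 217 (71 in the highest, 217 in the middle) and those by mean level 68 to 207 (68 in the lowest). The part of these properties in the counts of the added lists was not tested.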
